A study of Mus musculus with 6 samples.

Results

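Wt1, Krt8, Pdgfra, C3 and Cdh2 are genes expressed by the mesothelium, the sheet of cells that lines the peritoneal cavity, and by the fibroblasts beneath it. Their RNA was examined in cultures of mouse peritoneal macrophages. The genes were chosen by name because their transcripts were lower in the knockout in these same data, so their differences between the genotypes are given as a description and without a test. The deposited table lists 33539 transcripts of 16358 genes, of which 21 transcripts belong to these 5 genes. There are 8 of Wt1, 6 of Pdgfra, 3 of C3, 3 of Cdh2 and 1 of Krt8.

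The study compared wild-type (WT) mice with littermates that lack Fbxo38 in their myeloid cells (conditional knockout, cKO). Its product is an F-box protein, which picks the substrates of a ubiquitin ligase. Each genotype has 3 libraries, named here WT 1, WT 2, WT 3, cKO 1, cKO 2 and cKO 3. All the cells had been kept for 24 h with IL-4 and IL-13 (20 ng/mL), so there is no unstimulated group. The sources used here do not state the Cre line, the deleted exons, or the strain and age of the mice. The values are TPM, transcripts per 1000000 transcripts of a library, a level corrected for transcript length that keeps no read depth.

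Mesothelial cells are of mesodermal origin but form an epithelium, and they carry markers of both states. WT1 is a zinc-finger transcription factor of the embryonic and adult mesothelium, needed in mice for the development of the kidney and the heart. KRT8 is a keratin that pairs with KRT18 in the intermediate filaments of simple epithelia. CDH2, or N-cadherin, joins neighbouring cells through catenins and is the main classical cadherin of mesothelium. PDGFRA is the receptor tyrosine kinase for PDGF-A and a standard surface marker of fibroblasts. C3 is the central protein of the complement cascade, made mostly by the liver but also by mesothelial cells, fibroblasts and activated macrophages, so it is the least specific of the 5.

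Wt1 pre-mRNA is spliced into forms that differ at a short extension of its penultimate exon, which places the residues known as KTS between the last zinc fingers, and at a separate exon 5. Those sites are shown because they separate the listed Wt1 transcripts. They were read from the GENCODE M21 transcripts (build GRCm38, plus strand, Wt1 on chromosome 2), and capitals mark the 9 bases present in the longer form. The exon with the extension lies at chr2:105169926-105170018, and exon 5, of 51 bases, at chr2:105144142-105144192.
Wt1-205, with the 9 bases: ggactcatacagGTAAAACAAgtgaaaagc
Wt1-204, without them: ggactcatacaggtgaaaagc
Wt1-205, exon 5: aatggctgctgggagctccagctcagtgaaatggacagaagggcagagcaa

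Of the 8 listed Wt1 transcripts, Wt1-201, Wt1-203 and Wt1-205 hold the 9 bases and Wt1-202 and Wt1-204 do not. Exon 5 is present in Wt1-202 and Wt1-205 and skipped in the other 3 of these. Wt1-201 and Wt1-202 begin within intron 1 of Wt1-205. Wt1-206 and Wt1-208 are annotated as retained introns that cover neither site, and the assembled transcript MSTRG.10270.8 has no deposited structure.

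Start regions were found in the RefSeq table (GRCm38.p6) for 3 of the 5 genes, Pdgfra, Krt8 and C3, which are shown because the levels of these genes went together over the libraries. Each window runs from 250 bases before to 50 bases after the annotated start. The windows lie at chr5:75152001-75152300 on the plus strand for Pdgfra, at chr15:102004293-102004592 on the minus strand for Krt8 and at chr17:57228087-57228386 on the minus strand for C3. Capitals mark matches on either strand to the TATA motif TATAAA, to the CCAAT box or to the GC box motif GGGCGG.
Pdgfra: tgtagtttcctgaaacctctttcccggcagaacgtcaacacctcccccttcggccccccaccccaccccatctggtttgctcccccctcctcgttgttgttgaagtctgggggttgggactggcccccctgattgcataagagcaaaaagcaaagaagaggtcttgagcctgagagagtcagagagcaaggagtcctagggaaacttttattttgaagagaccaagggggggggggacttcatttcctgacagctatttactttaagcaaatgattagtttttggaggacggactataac
Krt8: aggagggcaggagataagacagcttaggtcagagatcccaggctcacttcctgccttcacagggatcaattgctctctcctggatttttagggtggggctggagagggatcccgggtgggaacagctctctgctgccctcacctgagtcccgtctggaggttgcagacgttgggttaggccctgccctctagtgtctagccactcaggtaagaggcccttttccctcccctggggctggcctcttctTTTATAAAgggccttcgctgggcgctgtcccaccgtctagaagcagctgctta
C3: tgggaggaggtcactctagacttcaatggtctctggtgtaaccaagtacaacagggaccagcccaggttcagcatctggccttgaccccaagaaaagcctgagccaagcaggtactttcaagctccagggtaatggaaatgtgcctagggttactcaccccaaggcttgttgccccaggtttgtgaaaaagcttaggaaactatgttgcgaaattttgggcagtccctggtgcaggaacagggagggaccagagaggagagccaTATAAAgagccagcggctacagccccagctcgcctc

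Krt8 held TATAAA from base 250 of its window, with an overlapping match on the opposite strand, and C3 held it from base 265. Counted from the annotated start, these matches begin at -1 for Krt8 and, downstream of the start, at 14 for C3. Pdgfra held none of the 3 motifs, and neither the CCAAT box nor the GC box motif occurred in any of these windows. Over all 32851 start regions in that table, 13.6% hold TATAAA, 37.4% the CCAAT box and 35.7% the GC box motif. A match is a run of letters and not a shown binding site.

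Some facts of the whole series bear on each comparison. Every listed transcript differs at least 2-fold in the authors' comparison, the smallest absolute log2 fold change being 1.00, so the listing itself depends on the contrast. It accounts for 6.57% of the TPM of WT 2 and for 2.01% to 3.79% in the rest. RNA of the Y-linked gene Eif2s3y was present in WT 3 and the cKO libraries (35.6 to 51.2 TPM) and listed at 0 in WT 1 and WT 2, so the sexes are not balanced over the genotypes. For the targeted gene, Fbxo38, the 7 listed transcripts summed to 8.79, 11.8 and 12.4 TPM in the WT libraries and 6.14, 9.08 and 5.90 TPM in the knockouts, so cKO 2 lay above WT 1. Of 2050 transcripts with at least 1 TPM in 3 or more libraries, 0 passed limma's test at a Benjamini-Hochberg adjusted p under 0.05 (4 without cKO 2), and 472 had an unadjusted p under 0.05, 125 higher and 347 lower in cKO.

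All 5 genes were lower in cKO, with mean summed levels between 2.62 and 4.29 times higher in WT. Each of the 21 listed transcripts had a lower mean in cKO, and each is listed as lower in the authors' deposited table, where 60.6% of all transcripts are. There, 1 of the 21, Cdh2-201, has an adjusted p under 0.05, as 0.268% of all listed transcripts do. Of the 21, 8 reached at least 1 TPM in 3 libraries. All cKO libraries lay below all WT libraries for 7 of these 8, as for 22.9% of the 2050 transcripts at that level. Cdh2-201, counted among the 7, passed that filter only through the WT libraries, so its groups could not overlap. Limma called 0 of the 8, and 0% of the 2050, of which 23.0% had an unadjusted p under 0.05. The 13 others also had lower means in cKO, none of them exceeded 9.83 TPM in any library, and 6 were listed at 0 in all cKO libraries. The contrast was used to choose the genes, so nothing is read from these counts. In bulk RNA, fewer cells of a type and less RNA per cell cannot be told apart.

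**Figure D1:**
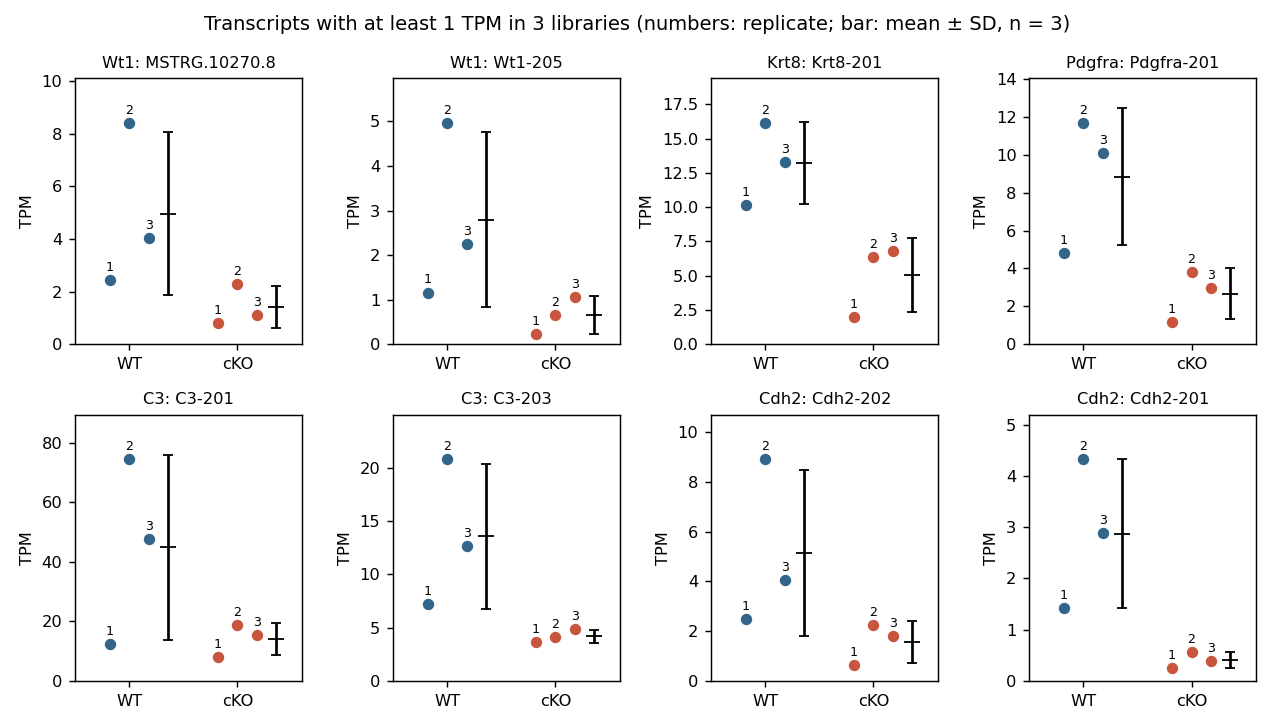
TPM (linear axis) of the 8 transcripts of Wt1, Krt8, Pdgfra, C3 and Cdh2 with at least 1 TPM in 3 libraries, for 3 WT and 3 cKO libraries, with the replicate number at each point and the mean ± SD beside it. WT 2 is the highest and cKO 1 the lowest point in each panel, and the groups overlap only for C3-201, where WT 1 at 12.5 TPM lies among the cKO libraries.

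The transcription factor gene Wt1 had its largest listed share in the assembled transcript MSTRG.10270.8. It had 2.45, 8.42 and 4.03 TPM in the WT libraries, against 0.82, 2.30 and 1.12 TPM in the knockouts, libraries 1 to 3 in order here and throughout. The gap between the groups was narrow, since WT 1 was 1.07 times the level of cKO 2. Wt1-205, with both the 9 bases and exon 5, had 1.16, 4.97 and 2.25 TPM in the WT libraries, against 0.23, 0.66 and 1.07 TPM in the knockouts. WT 2 was again the highest library, and WT 1 and cKO 3 were nearly level. The log2(TPM + 1) differences of cKO from WT were -1.23 ± 0.51 and -1.10 ± 0.47 (SE) for these transcripts.

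The other Wt1 forms were low, and none reached 1 TPM in 3 libraries. Wt1-204, without the 9 bases, had 1.22, 4.71 and 0.06 TPM in the WT libraries, against 0.38, 0.60 and 0.47 TPM in the knockouts, so WT 3 was the lowest of the 6 libraries. Wt1-203 was listed at 0 in WT 1 and in all cKO libraries and at 2.34 and 0.98 TPM in WT 2 and WT 3. Summed over the listed reference transcripts, the form with the 9 bases reached 1.83, 10.2 and 4.56 TPM in the WT libraries, against 0.67, 0.98 and 1.71 TPM in the knockouts. The form without them reached 1.22, 4.71 and 0.24 TPM in the WT libraries, against 0.38, 0.60 and 0.47 TPM in the knockouts. Both forms were highest in WT 2. At these levels, with depth unknown, the precision of the split between forms is unknown.

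Krt8, the keratin gene, has 1 listed transcript. It had 10.2, 16.2 and 13.3 TPM in the WT libraries, against 1.95, 6.36 and 6.82 TPM in the knockouts. The genotypes did not overlap, WT 1 being 1.49 times the highest cKO library. WT 2 was 1.59 times WT 1, the narrowest such ratio among the 8 transcripts. The log2 difference was -1.34 ± 0.57 (SE). A processed copy, Krt8-ps, is annotated in the mouse genome and could share reads with it. Its partner Krt18 has no transcript in the table and was not analysed here.

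Cdh2 had 2 transcripts at measurable levels. Cdh2-201, the form with the longer coding region (2718 against 2547 bases), had 1.42, 4.32 and 2.88 TPM in the WT libraries, against 0.25, 0.57 and 0.39 TPM in the knockouts. Its WT mean was 7.12 times its cKO mean, the widest ratio of the 8 transcripts, and WT 1 was 2.49 times the highest cKO library. It passed the filter only through the WT libraries, so a gap between the groups was bound to appear. Cdh2-202 had 2.48, 8.90 and 4.05 TPM in the WT libraries, against 0.62, 2.25 and 1.82 TPM in the knockouts, a ratio of 3.29. The log2 fold changes in the authors' deposited table are -2.46 for Cdh2-201, with an adjusted p of 0.000181, and -1.36 for Cdh2-202, with an adjusted p of 0.485.

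The receptor gene Pdgfra was carried by Pdgfra-201. It had 4.79, 11.7 and 10.1 TPM in the WT libraries, against 1.18, 3.81 and 2.98 TPM in the knockouts. Here WT 3 was close to WT 2, and WT 1 was 1.26 times the highest cKO library. The log2 difference was -1.43 ± 0.54 (SE). The other 5 listed Pdgfra transcripts stayed at 1.79 TPM or less in every library, and 1 of them, the retained intron Pdgfra-204, was listed at 0 in all cKO libraries.

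C3 had the highest listed level of the 5 genes. C3-201, the full-length complement transcript with 41 exons, had 12.5, 74.3 and 47.7 TPM in the WT libraries, against 8.18, 18.7 and 15.25 TPM in the knockouts. The groups overlapped, as WT 1 lay below cKO 2 and cKO 3, and WT 2 was 5.94 times WT 1. The short C3-203 had 7.19, 20.8 and 12.7 TPM in the WT libraries, against 3.63, 4.10 and 4.83 TPM in the knockouts, without overlap. Its log2 difference was -1.38 ± 0.54 (SE), against -1.36 ± 0.78 (SE) for C3-201. C3-202, which is not protein-coding, was at 9.83 TPM in WT 2 and at 2.27 TPM or less elsewhere.

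Summed over the listed transcripts, C3 had means of 62.1 ± 42.1 TPM (WT) and 19.2 ± 5.75 TPM (cKO), with the SD over 3 libraries here and in the following sums. Krt8 was at 13.2 ± 3.00 and 5.04 ± 2.69 TPM, and Wt1 at 12.95 ± 10.02 and 3.02 ± 1.03 TPM. Pdgfra was at 10.6 ± 4.92 and 2.97 ± 1.29 TPM, and Cdh2 at 8.04 ± 4.80 and 1.97 ± 0.998 TPM. C3 was the highest of the 5 in every library. The order of the means was the same in both genotypes, and below C3 each pair of neighbours in it differed by less than the larger of their SDs. TPM are corrected for length, but each sum leaves out the transcripts of its gene that are not listed. The order is therefore one of listed levels and not of the whole genes. The summed log2 differences ran from -1.34 ± 0.57 for Krt8 to -1.59 ± 0.62 (SE) for Wt1, and without WT 2 they were smaller, from -0.90 for C3 to -1.22 for Pdgfra. Without WT 2 that of Wt1 was -1.04, and without cKO 1 that of Krt8 was -0.88.

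The library WT 3 is the only WT library with Y-linked RNA, as all the cKO libraries have. It lay above every cKO library for each of the 8 transcripts, as for 43.5% of the 2050. For Cdh2-201 this followed from the filter. The summed level of WT 3 was 1.95 times the highest cKO library for Krt8, 2.30 times for Wt1, 2.46 times for Cdh2, 2.66 times for C3 and 2.83 times for Pdgfra.

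The share of each transcript within the listed TPM of its gene is described with no test, since the table holds only transcripts listed for the same contrast. Cdh2-201 made up 36.4%, 32.5% and 41.6% of listed Cdh2 in WT and 28.7%, 20.2% and 17.6% in cKO. The groups did not overlap, the means being 36.8% ± 4.55 and 22.2% ± 5.80 (SD, n = 3 each). Nothing is read from this gap, since with 3 libraries per genotype an exact two-sided p cannot fall below 0.1. Cdh2-201 reached 1 TPM only in the WT libraries. C3-201 made up 70.0% ± 9.13 of listed C3 in WT and 71.7% ± 9.07 in cKO (SD, n = 3 each), overlapping. Transcripts outside the table are not in these shares.

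**Figure D2:**
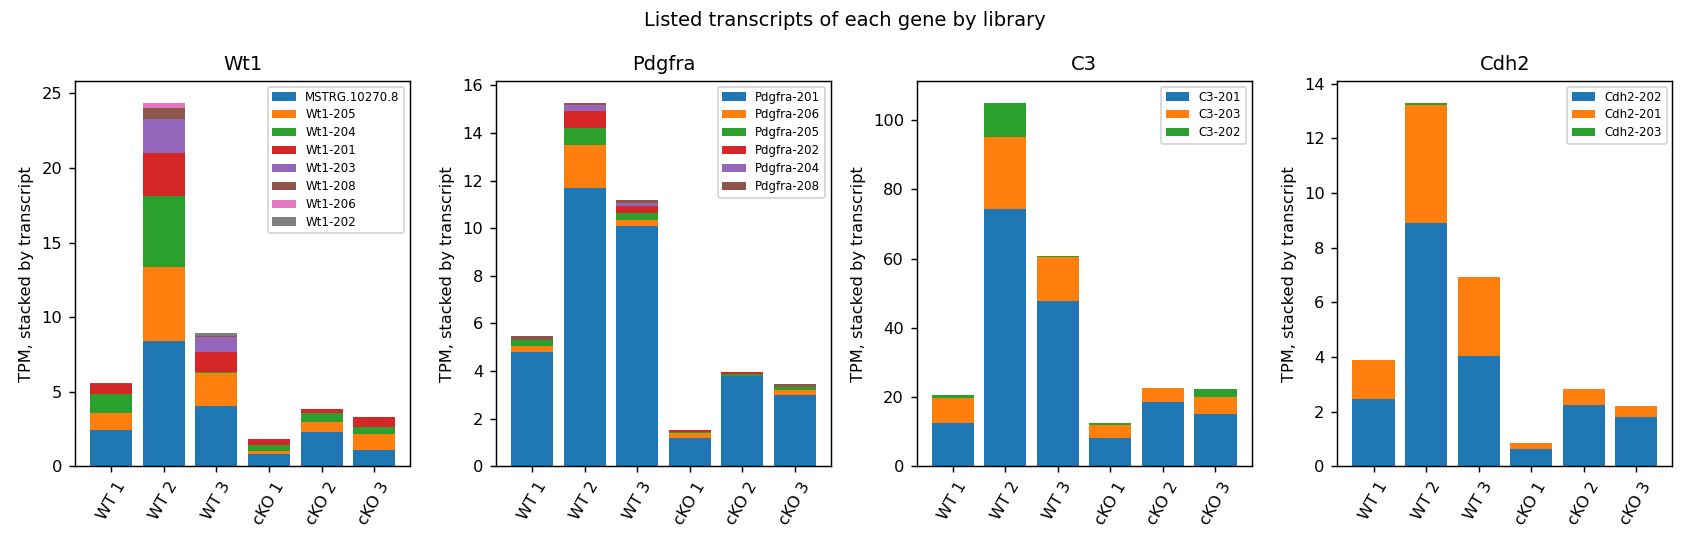
TPM stacked by listed transcript for Wt1, Pdgfra, C3 and Cdh2 in each of the 6 libraries, on linear axes from 0. The bars of WT 2 are the tallest and those of cKO 1 the shortest for each gene, and within Cdh2 the orange part, Cdh2-201, is 17.6% to 28.7% of the bar in cKO against 32.5% to 41.6% in WT.

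The levels of the 5 genes were correlated over the 6 libraries, which is part of why they were chosen. For each of the 8 transcripts WT 2 was the highest library and cKO 1 the lowest, an order found in 17.0% of the 2050 transcripts. Over summed levels, Pearson's r of log2(TPM + 1) had a median of 0.96 over the 10 pairs of genes, from 0.85 for Krt8 with C3 to 0.99 for Pdgfra with Cdh2. Spearman's rho ran from 0.77 to 1.00. These are descriptions of 6 libraries that share WT 2 as their extreme, and no p is given. Without WT 2 and cKO 1, the 2 libraries farthest from the middle, the median r was 0.95 over the remaining 4. After the mean of each genotype was taken away, r still had a median of 0.91, with the lowest values for Krt8, at 0.66 with Wt1 and 0.68 with C3. The correlation depends on the scale. When the TPM were rescaled by median ratios the median r was 0.70, from 0.25 to 0.95. The factors of that rescaling, taken over listed transcripts of all genes, were also highest for WT 2 (2.71) and lowest for cKO 1 (0.57).

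**Figure D3:**
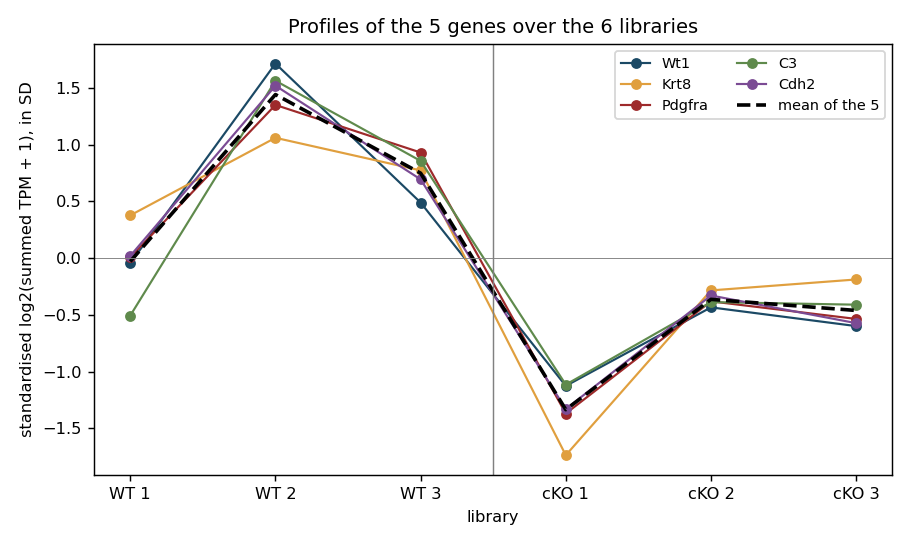
Level of each gene in each library, as log2(summed TPM + 1) minus the gene's mean and divided by its SD, with the mean of the 5 genes dashed. The mean profile is at 1.44 in WT 2 and 0.75 in WT 3, at -0.03 in WT 1 between the genotypes, and at -1.34 in cKO 1.

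**Figure D4:**
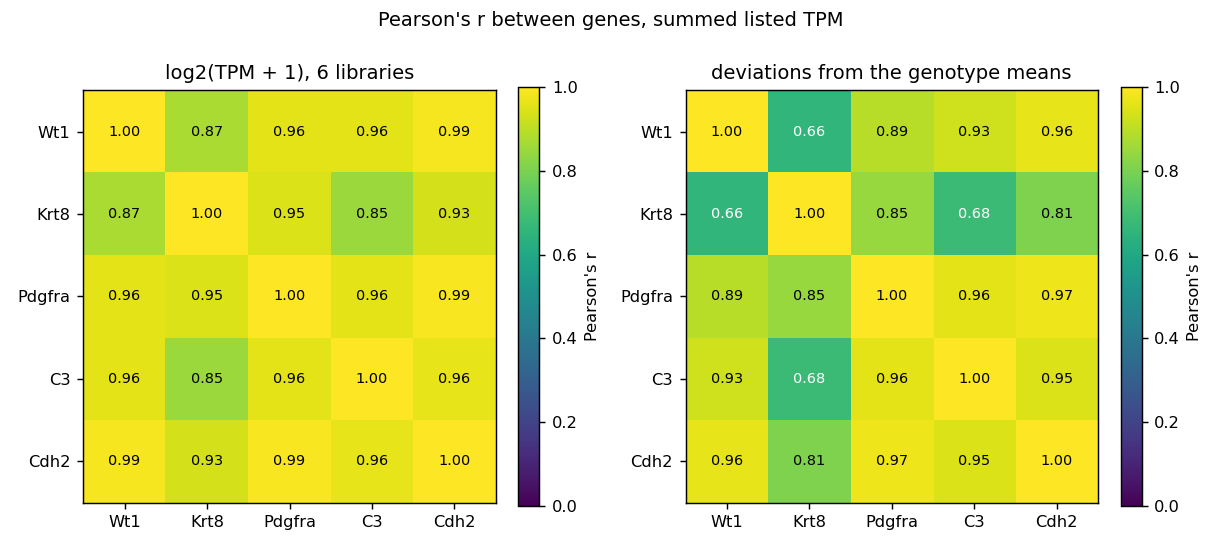
Pearson's r between the 5 genes over the 6 libraries, for log2(summed TPM + 1) on the left and for deviations from the genotype means on the right, colour running from 0 to 1. The pairs with Krt8 have the lowest values in the right panel, down to 0.66 with Wt1.

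The proportions between the genes were described as the log2 ratio of (TPM + 1) of each pair, after the data had been seen and with no test, since the genes were chosen for going together. Over the 10 pairs, the difference of cKO from WT ran from -0.26 for Wt1 over Krt8 to 0.20 for Krt8 over Cdh2. Wt1 over Krt8 was at -0.24 ± 0.71 in WT and -0.50 ± 0.42 in cKO (SD, n = 3 each). The spread was wider in WT for each pair, as for Pdgfra over C3, at -2.26 ± 0.48 in WT and -2.36 ± 0.091 in cKO. The added 1 pulls the ratios of low levels toward 0.

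The tested transcripts of further markers of mesothelium and fibroblasts had lower means in cKO without passing the test. Leaving out the 5 genes, the mesothelial list had 5 tested transcripts of 5 genes, 5 lower and 0 higher, with a median log2 difference of -1.08. The fibroblast list had 17 of 14 genes, 17 lower and 0 higher, with a median of -1.46. Over all 2050 transcripts 1037 were lower and the median was -0.39. After rescaling by median ratios, which raises the median of all tested transcripts by 1.08, the medians of these lists were -0.38 and -0.62. Limma called 0 transcripts in both lists, and at an unadjusted p under 0.05 there were 1 and 6, all lower, where 16.9% of the 2050 are lower at that p. Below the filter the direction was mixed. With the 5 genes kept in, the table holds 51 mesothelial transcripts, of which 42 fell in cKO and 9 rose. It holds 86 fibroblast ones, of which 73 fell and 13 rose, where 60.6% of all listed are lower. Summed Postn, for instance, was at 0.26, 1.13 and 0 TPM in the WT libraries, against 0.9, 0.71 and 0.9 TPM in the knockouts.

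Among mesothelial markers, Lrrn4, a membrane protein gene, had 6.27, 31.8 and 14.2 TPM in the WT libraries, against 2.05, 6.77 and 7.32 TPM in the knockouts, and the groups overlapped. Upk3b, a uroplakin gene, had 2.02, 16.2 and 3.88 TPM in the WT libraries, against 0.78, 2.18 and 3.76 TPM in the knockouts, with WT 2 alone well above the rest. Gas1, which encodes a membrane protein of hedgehog signalling, did not overlap, at 5.53, 24.9 and 9.14 TPM in the WT libraries, against 1.47, 3.89 and 4.67 TPM in the knockouts (limma adjusted p = 0.209). Msln and Muc16, the textbook mesothelial surface proteins, were under 1 TPM in every library in their listed transcripts, as were Cav1, Efemp1, Gpm6a and Nkain4. Of the 30 genes of this list, 8 have no transcript in the table, among them Krt7, Krt18 and Pdpn. Without the 5 genes, the listed transcripts of the list summed to 19.8, 104.6 and 34.5 TPM in the WT libraries, against 7.35, 19.6 and 21.99 TPM in the knockouts, and WT 1 lay within the cKO range.

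The tested fibroblast markers had WT 2 as their highest library throughout. Col1a1, a fibrillar collagen gene, had 3.51, 123 and 15.8 TPM in the WT libraries, against 1.37, 4.80 and 3.79 TPM in the knockouts, so WT 2 stood far above the other libraries and WT 1 lay within the cKO range. Col6a1, of the microfibrillar collagen VI, had 23.25, 134 and 54.0 TPM in the WT libraries, against 6.71, 21.9 and 20.8 TPM in the knockouts. The matrix genes Fbln2, Fbln1 and Pcolce had differences of -1.50, -1.15 and -1.46 on the log2 scale, without overlap (limma adjusted p = 0.209 for each). Fbln1 passed the filter only through the WT libraries. WT 2 was the highest and cKO 1 the lowest library for 17 of the 17 fibroblast transcripts and 3 of the 5 mesothelial ones. Dcn, Fap, Pi16, Sfrp1 and Thy1 were under 1 TPM in every library in their listed transcripts. Without Pdgfra, the listed transcripts of the list summed to 160 to 964 TPM in WT, against 47.7 to 154 TPM in the knockouts. Pdgfrb, the second PDGF receptor gene, has no transcript in the table, and the ligand genes Pdgfa, Pdgfb and Pdgfd stayed under 1 TPM in their listed transcripts.

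The list of classical cadherins and catenins has 48 listed transcripts with Cdh2, 29 lower and 19 higher in cKO, where 60.6% of all listed are lower. Outside Cdh2, 6 transcripts of this list were tested, of Vcl, Cdh1, Cdh3, Cdh11 and Nectin2 and none of a catenin. All 6 had lower means in cKO, with a median of -1.18 and 0 called by limma (2 at an unadjusted p under 0.05, lower, as 16.9% of the 2050 were). Vcl, which encodes the actin linker vinculin, had 6.28, 17.1 and 13.3 TPM in the WT libraries, against 3.15, 4.60 and 3.90 TPM in the knockouts. Cdh1, or E-cadherin, had 2.38, 7.29 and 3.17 TPM in the WT libraries, against 1.43, 1.92 and 1.40 TPM in the knockouts. Both kept the genotypes apart. Nectin2, an adhesion gene, had a difference of -1.17 ± 0.47 (SE), with an adjusted p of 0.209. Of the keratins and desmosome partners with Krt8, 35 of 40 listed transcripts were lower in cKO, where 60.6% of all listed are. Outside Krt8, 2 were tested, of which limma called 0, also at an unadjusted p under 0.05. The keratin gene Krt19 had 1.18, 8.27 and 1.56 TPM in the WT libraries, against 0.40, 0.36 and 2.11 TPM in the knockouts, overlapping, while the desmosomal plakophilin gene Pkp2 had the higher mean in cKO, at 13.4 ± 10.4 against 8.60 ± 10.7 TPM (SD, n = 3 each).

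Among the complement genes reported here, Cfb, the factor B gene of the alternative pathway, was highest in WT 3 and not, as C3 was, in WT 2. Its transcript ENSMUST00000154526 had 2.72, 2.07 and 50.02 TPM in the WT libraries, against 0.96, 1.16 and 1.09 TPM in the knockouts. The 4 tested transcripts of Cfb correlated with the mean profile of the 5 genes at r between 0.30 and 0.52, and without WT 2 at 0.73 to 0.86, and 0 of them had WT 2 as the highest and cKO 1 as the lowest library. Limma called 0 of them, also at an unadjusted p under 0.05.

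Partners of Wt1 and factors of the embryonic mesothelium had 5 tested transcripts, 5 lower and 0 higher, with a median of -0.83. Limma called 0, and 3 were lower at an unadjusted p under 0.05, as 16.9% of the 2050 transcripts were. Gata6, a transcription factor gene of both mesothelium and resident peritoneal macrophages, had 2.57, 9.27 and 5.10 TPM in the WT libraries, against 0.89, 1.74 and 0.52 TPM in the knockouts. In the authors' deposited comparison this Gata6 transcript has an adjusted p of 0.0267. Hand2, expressed in lateral mesoderm and its derivatives, had 2.96, 7.80 and 4.12 TPM in the WT libraries, against 0.79, 1.79 and 2.58 TPM in the knockouts. The repressor gene Snai1 and the retinoic acid receptor gene Rarb stayed at 2.44 TPM or less. These 4 were highest in WT 2, but Snai1 and Rarb passed the filter only through the WT libraries, so their groups could not overlap. Zeb2, a repressor gene and the last tested one, was highest in WT 3, at 4.02 TPM, and its groups overlapped.

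The genes with the most similar pattern were ranked by r of log2(TPM + 1) with the mean standardised profile of the 5 genes, over the 6 libraries, among other named genes with a mean of at least 5 TPM. The 8 highest were the adaptor gene Grb10, an imprinted inhibitor of growth factor signalling, Tsc22d1, the IGF-binding protein gene Igfbp4, the receptor tyrosine kinase gene Axl, Serpinf1, Col6a1, the collagen chaperone gene Fkbp10 and Col1a2. Their r ran from 0.98 for Col1a2 to 1.00 for Grb10, and without WT 2 from 0.98 to 1.00 over the other 5 libraries. Grb10 had 5.66, 24.0 and 12.9 TPM in the WT libraries, against 1.13, 3.85 and 3.65 TPM in the knockouts. Axl had 5.56, 14.9 and 9.22 TPM in the WT libraries, against 2.27, 5.00 and 3.78 TPM in the knockouts. Both kept the genotypes apart, with WT 2 highest and cKO 1 lowest. The ranking selects genes with this order, so nothing is read from it. Of the 8, only Serpinf1 and Col1a2 overlapped, with WT 1 below cKO 2 (4.87 against 4.92 TPM and 16.6 against 18.3 TPM). Of the 2050 transcripts, 288, or 14.05%, had r of at least 0.9 and 35 had r of -0.9 or less, and the median r was 0.16. Of the fibroblast transcripts outside the 5 genes, 15 of 17 reached 0.9, and 11 without WT 2, and of the mesothelial ones 2 of 5, and 2 without WT 2.

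**Figure D5:**
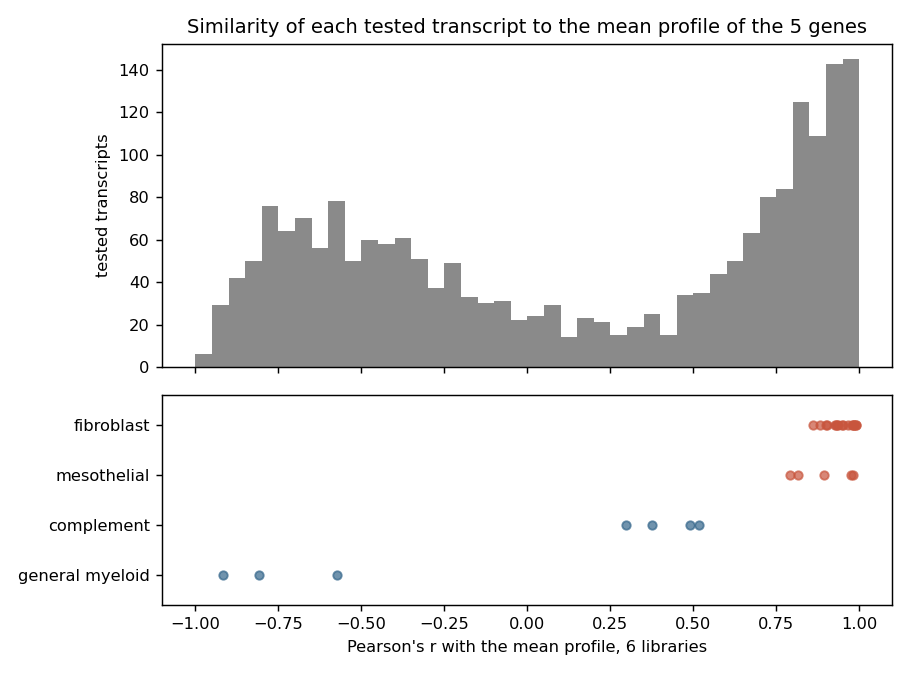
Above, the number of tested transcripts by Pearson's r of log2(TPM + 1) with the mean profile of Wt1, Krt8, Pdgfra, C3 and Cdh2 over 6 libraries. Below, each point is a tested transcript of a gene list with the 5 genes left out. Fibroblast markers lie at 0.86 to 0.99 and mesothelial ones at 0.79 to 0.98. Complement, here 4 transcripts of Cfb alone, lies at 0.30 to 0.52 and general myeloid genes at -0.92 to -0.57. Without WT 2 these ranges are 0.68 to 0.99, 0.50 to 0.98, 0.73 to 0.86 and -0.86 to -0.14.

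Macrophage genes were present, and part of them had higher means in cKO. General myeloid genes had 3 tested transcripts, 0 lower and 3 higher, with a median of 1.13. Limma called 0 of them, and 1 was higher at an unadjusted p under 0.05, as 125 of the 2050 were. Lyz1, a lysozyme gene, had 72.0, 38.15 and 63.7 TPM in the WT libraries, against 312, 224 and 283 TPM in the knockouts. In the authors' deposited comparison this Lyz1 transcript has an adjusted p of 1.58e-07. Tyrobp, an adaptor of myeloid receptors, had 365, 175 and 252 TPM in the WT libraries, against 896, 224 and 848 TPM in the knockouts. WT 2, highest for the 5 genes, was lowest for both, as it was for Spi1, which encodes the myeloid factor PU.1 and differed by 0.72 ± 0.53 (SE). Of the 15 genes of the list, 7 have listed transcripts, 18 in all. In the authors' deposited comparison 2 of the 18 have an adjusted p under 0.05, as 0.268% of all listed transcripts do. Where 60.6% of all listed transcripts were lower in cKO, 11 of these 18 were lower and 7 higher. They summed to 228 to 447 TPM in WT, against 472 to 1223 TPM in the knockouts, nearly all of it Tyrobp and Lyz1. Csf1r, the receptor gene for the macrophage growth factor M-CSF, had a lower mean in cKO over its listed transcripts, at 0.08, 3.64 and 6.49 TPM in the WT libraries, against 0, 0.38 and 0 TPM in the knockouts. Itgam, an integrin gene, and Aif1 were also lower in their summed means, at 1.38 TPM or less. The 5 tested transcripts of resident large peritoneal macrophages had a median of -1.09, 5 lower and 0 higher, and 0 were called (4 at an unadjusted p under 0.05, lower, as 16.9% of the 2050 were). That of Rarb passed the filter only through the WT libraries, so its mean had to be lower in cKO. After rescaling by median ratios 3 of the 5 were lower and 1 higher, the Adgre1 transcript ENSMUST00000233376, and 1 fell below the filter. The other Adgre1 transcript, ENSMUST00000004850, which encodes the macrophage antigen F4/80, was at 4.18, 3.63 and 5.58 TPM in the WT libraries, against 1.05, 2.35 and 1.37 TPM in the knockouts, and Thbs1, the thrombospondin gene, at -1.51 ± 0.57 (SE) on the log2 scale. The only tested transcript of small peritoneal macrophages, of the MHC gene H2-Eb1, differed by 0.91 ± 0.66 (SE).

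Markers of other cells had few tested transcripts. Only transcripts that differ at least 2-fold are listed, so this does not show how much RNA of those cells was present. Endothelial markers had 1 tested transcript, of Flt1, at 2.24 TPM or less. It passed the filter only through the WT libraries, so its mean had to be lower in cKO. Smooth muscle markers had 2, of Tagln and Myl9, each with a lower mean in cKO. Limma called 0 of these 3 transcripts, also at an unadjusted p under 0.05. Summed, the listed endothelial transcripts lay between 2.91 and 16.6 TPM in WT, against 1.13 to 2.82 TPM in the knockouts, with those of Cdh5, Kdr and Pecam1 under 1 TPM in every library. The listed smooth muscle transcripts summed to 9.71, 34.1 and 10.03 TPM in the WT libraries, against 2.39, 7.73 and 8.09 TPM in the knockouts. Most of this was Tagln, at 7.87, 25.9 and 4.46 TPM in the WT libraries, against 1.72, 6.56 and 6.38 TPM in the knockouts. B cell, T and NK cell, and mast cell and granulocyte markers had 0 tested transcripts, and the listed transcripts of each summed to 3.83 TPM or less in every library. The part that these cells, the macrophage subsets or the sex of the mice had in the levels of the 5 genes was not tested.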

How the data were processed

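RNA was sequenced from 6 libraries, 3 per genotype. Per the labels' protocols, poly(A) RNA was made into stranded libraries, and the tools used on the reads were fastp for trimming, HISAT2 for alignment by strand and StringTie for assembly. The submitters' processing notes also name RSEM and DESeq2 (no versions). The sources used here do not state the authors' genome build or annotation. Per the file headers, the deposited values are TPM per transcript, which keep no depth, so no counting interval is given. Beside them the authors' deposited comparison holds the fold change (a ratio, cKO to WT), its log2 form, a p-value and its adjusted form. A small second table of 17 selected transcripts repeats the log2 fold change of the main table for 14 (within 0.0001). All 6 columns of per-sample values were matched to libraries, leaving 0 unmatched.

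Transcripts with at least 1 TPM in at least 3 libraries were tested as log2(TPM + 1), which understates changes of low transcripts, with limma 3.58.1 in R 4.3.3 (variance trend, genotype as the only term, two-sided, Benjamini-Hochberg at 0.05). The same fit gave the differences and SE of the 5 genes. The files list transcripts, so transcripts were tested, not genes. The members and the 15 gene lists were chosen with earlier results of these data known. Named from each list were up to 4 tested transcripts with the smallest p, 1 per gene; others, such as Lrrn4, Upk3b, Col1a1 and Col6a1, were chosen after their values were seen. As similar genes, the 8 with the highest r were named. Libraries of a genotype are separate samples per the labels, which do not say which numbers are littermates. Python 3.11.15, pandas 2.3.3, numpy 2.4.6, scipy 1.17.1 and matplotlib 3.10.9 were used. Alternatives were a pseudocount of 0.1, rescaling by median ratios, no filter, leaving out each library and the replicate number as a block. From the complement list 1 gene was left out and is not reported here, and only genes of that list with tested transcripts are described.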

Additional observations from a re-analysis of the deposited data

How the results depend on the processing

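The summed differences of Wt1, Krt8, Pdgfra, C3 and Cdh2 were below 0 under every alternative run. Rescaling by median ratios, with factors from the listed transcripts alone, raised the median of all tested transcripts by 1.08, from -0.39 to 0.69. The differences became -0.71 for Wt1, -0.45 for Krt8, -0.65 for Pdgfra, -0.40 for C3 and -0.74 for Cdh2. Relative to the median of all tested transcripts, they were -1.40, -1.14, -1.34, -1.09 and -1.43, against -1.21, -0.95, -1.12, -1.02 and -1.15 without rescaling. The median of the mesothelial list, here with the 5 genes kept in, became -0.45. The median r of the 5 genes became 0.70. Limma then called 14 transcripts, 2 lower and 12 higher in cKO, 0 of them of the 5 genes. Of the other lists, the median of the keratins and desmosome partners without Krt8 turned from -0.18 to 0.58, over 2 transcripts. With no filter on low values, and the 5 genes kept in, the medians were -0.29 (mesothelial, 51 transcripts) and -0.20 (fibroblast, 86), which adds transcripts below the filter. Leaving out each library gave 0 to 4 calls, the 4 without cKO 2. It gave differences of -2.02 to -1.04 for Wt1, -1.59 to -0.88 for Krt8, -1.89 to -1.21 for Pdgfra, -2.04 to -0.90 for C3 and -1.91 to -1.13 for Cdh2. The list medians, again with the 5 genes kept in, ran from -1.59 to -0.84 (mesothelial) and from -1.78 to -1.06 (fibroblast). The 5 genes were chosen on this contrast, so these list medians do not describe the other markers alone. With the replicate number as a block, 0 transcripts passed (499 at an unadjusted p under 0.05, against 472). The numbers were not shown to pair the libraries, as same-numbered deviations correlated at 0.13, -0.14 and -0.11. TPM keep no depth, so the precision of the low Wt1, Pdgfra and Cdh2 forms is unknown.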
